A study of Mus musculus with 12 samples.

Results

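The interferon-induced GTPases form 2 related families, the guanylate-binding proteins (Gbp) and the immunity-related GTPases (Irg). Their mRNA was followed in mouse vessels over a week of angiotensin II. Of 10 listed genes (Gbp2, Gbp3, Gbp4, Gbp6, Gbp7, Irgm1, Irgm2, Igtp, Iigp1 and Tgtp1), 8 had a transcript cluster, the array's unit for a gene, that was annotated to that gene alone. Where a gene had several such clusters, the brightest over the 12 arrays was taken. All 8 were bright enough to pass the filter, and entered the tests among 22168 genes. Gbp6 and Tgtp1 were read only by clusters shared with close relatives, which are described apart and were not tested.

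RNA was taken from vessels of male C57BL/6 mice aged 8 to 10 weeks. The groups were untreated mice (day 0) and mice after 1, 3 and 7 days of angiotensin II, a hormone that constricts arteries, infused at 1500 ng per kg per min in Ringer's solution from an osmotic pump. Each group had 3 arrays described as biological replicates. No vehicle pump group was analysed here, so effects of the pump and of the hormone cannot be told apart, and the sources used here do not name the vessel sampled.

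Both families are switched on by interferons. Interferon gamma acts on promoters through gamma-activated sites (GAS) and through IRF1, which binds interferon-stimulated response elements (ISRE), while type I interferons act on ISREs through a complex that includes STAT2 and IRF9. The Gbp and Irg proteins assemble on the membranes of vacuoles that hold intracellular microbes, work with the autophagy machinery and feed into inflammasome activation. In vessels their transcripts serve as a readout of interferon reaching the tissue, and they are made by many cell types, endothelium, smooth muscle and macrophages among them.

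Promoter sequence for 7 of the 10 listed genes was read from RefSeq (GRCm38.p6), and the 120 bases before the annotated start site are printed here because all 7 genes hold the same short element there. Capitals mark matches to the ISRE core GAAANNGAAA, searched on both strands, and to the GAS core TTCNNNGAA, whose pattern reads the same on both strands. No window was found for Gbp4, Gbp6 and Iigp1, which are named only.
Gbp2 (chr3:142620543-142620662, plus strand): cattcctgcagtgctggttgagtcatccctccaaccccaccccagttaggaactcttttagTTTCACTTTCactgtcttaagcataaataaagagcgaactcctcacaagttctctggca
Gbp3 (chr3:142559924-142560043, plus strand): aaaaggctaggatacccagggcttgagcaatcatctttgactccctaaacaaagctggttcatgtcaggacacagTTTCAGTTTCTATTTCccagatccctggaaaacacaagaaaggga
Gbp7 (chr3:142530216-142530335, plus strand): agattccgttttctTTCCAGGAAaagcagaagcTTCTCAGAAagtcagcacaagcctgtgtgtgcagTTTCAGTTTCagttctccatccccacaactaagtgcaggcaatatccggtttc
Irgm1 (chr11:48871421-48871540, minus strand): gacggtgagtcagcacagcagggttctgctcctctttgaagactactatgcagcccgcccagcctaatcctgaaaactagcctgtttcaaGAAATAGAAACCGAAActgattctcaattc
Irgm2 (chr11:58214857-58214976, plus strand): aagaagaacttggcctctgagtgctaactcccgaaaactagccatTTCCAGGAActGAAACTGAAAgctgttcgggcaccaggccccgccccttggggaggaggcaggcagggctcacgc
Igtp (chr11:58199436-58199555, plus strand): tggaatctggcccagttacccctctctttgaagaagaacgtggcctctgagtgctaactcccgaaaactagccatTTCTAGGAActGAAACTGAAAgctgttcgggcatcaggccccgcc
Tgtp1 (chr11:48992247-48992366, minus strand): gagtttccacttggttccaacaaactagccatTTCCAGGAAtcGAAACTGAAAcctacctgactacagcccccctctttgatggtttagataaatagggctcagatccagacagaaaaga
All 7 genes had an ISRE core within 250 bases before a start site, against 2.98% of 32851 mouse promoter windows (978 windows). A GAS core lay in 4 of the 7 (Gbp7, Irgm2, Igtp and Tgtp1), against 7.02% of windows. In Gbp2, Gbp3 and Gbp7 the ISRE core lay on the strand opposite to the gene, and in Irgm1, Irgm2, Igtp and Tgtp1 on the gene's own strand. The matches overlapped each other in Gbp3 and Irgm1, which held 2 each. The upstream window of Gbp3's other annotated start site held neither core. Irgm2, Igtp and Tgtp1 shared an arrangement in which a GAS core was followed after 2 bases by an ISRE core. Only 5 of the 32851 windows (0.0152%) held that arrangement on either strand, and the other two belong to Gm12185 and Tgtp2, which share array clusters with Tgtp1. The Igtp and Irgm2 windows are near copies, with 88.2% identity over 220 aligned bases, so they are not independent examples. No other pair among the 7 aligned over more than 39 bases. Tgtp1 aligned over 32 bases with Irgm2 (93.8% identity) and with Igtp (90.6%), a stretch that holds the arrangement. Tgtp1 is therefore not a clearly independent example of it either. Such letter matches describe the sequence and do not show that a factor bound there.

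**Figure D1:**
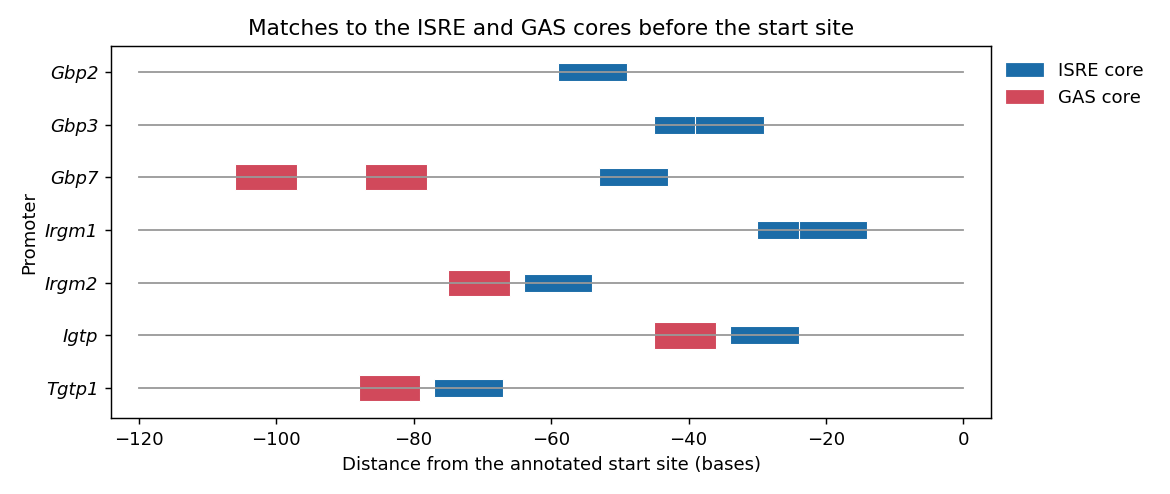
Positions of ISRE core (blue) and GAS core (red) matches in the 120 bases before the annotated start site of 7 GTPase genes, with distance in bases on the horizontal axis. Each gene has at least 1 ISRE core, and in Irgm2, Igtp and Tgtp1 the GAS core sits 2 bases ahead of it.

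The deposited values are log2 signals. Signal over background, taken as the gap between the medians of positive and negative control features, was 2.56 to 2.64 log2 units on day 0, 1.94 to 2.51 on day 1, 1.83 to 2.11 on day 3, and 1.20, 1.98 and 2.10 on the 3 day 7 arrays. Day 7 replicate 1 therefore had the narrowest range of signal. For the GTPases 2 arrays stood apart from their groups, day 7 replicate 1 and, on day 0, replicate 3, and the main results on the members are given with and without them. Pathway lists are given with all arrays and without day 7 replicate 1. Pearson r between arrays of a group was 0.969 to 0.993 over the genes, and the number of arrays limits every estimate. The smooth muscle markers Acta2, Tagln, Myh11 and Cnn1 averaged 17.72 to 17.98 on day 0 and 11.42 to 14.95 on day 7, and the endothelial markers 8.74 to 10.41 over all arrays, so both cell types of a vessel were represented. In bulk RNA, a change in the number of cells of a type and a change in RNA per cell cannot be told apart.

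The Gbp genes had lower means on days 1 and 3 than on day 0 and were high on 2 of the 3 arrays of day 7. Gbp2, a GTPase that coats vacuoles holding parasites, read 7.87, 8.62 and 9.74 on the day 0 arrays, 7.66, 7.48 and 7.39 on day 1, 7.41, 7.78 and 7.09 on day 3, and 7.78, 10.07 and 10.72 on day 7, each in the order of replicates 1, 2 and 3. Its day 7 replicate 1 lay below the day 0 range, while replicates 2 and 3 lay above every other array. All day 1 and day 3 arrays lay below all day 0 arrays for this gene.

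Gbp4, another inducible member, read 8.62, 9.09 and 10.31 on day 0, 8.75, 8.15 and 8.27 on day 1, 7.70, 8.74 and 7.93 on day 3, and 9.07, 12.00 and 12.51 on day 7. Day 7 replicates 2 and 3 were higher than any other array, and replicate 1 was within the day 0 range. Gbp7, which has been linked to delivery of oxidase subunits to vacuoles, read 8.47, 8.68 and 9.28 on day 0, 8.33, 8.39 and 8.17 on day 1, 8.03, 8.48 and 8.09 on day 3, and 8.47, 11.40 and 11.54 on day 7. Gbp3 read 6.54, 6.83 and 7.23 on day 0, 6.55, 6.32 and 6.27 on day 1, 6.37, 6.63 and 6.33 on day 3, and 6.92, 9.05 and 9.38 on day 7. Both showed the same split of day 7, with replicate 1 at the level of untreated mice.

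The Irg family comprises regulators that protect host membranes (Irgm1, Irgm2 and Igtp) and effectors that load onto vacuoles (Iigp1 and Tgtp1). Irgm1, also tied to autophagy and mitochondrial quality, read 6.88, 7.26 and 7.68 on day 0, 7.00, 6.85 and 7.12 on day 1, 7.20, 7.15 and 7.08 on day 3, and 7.65, 9.41 and 9.50 on day 7. Its SDs were 0.40, 0.13, 0.06 and 1.04 (n = 3 each). Igtp read 7.28, 7.67 and 9.45 on day 0, 6.74, 6.45 and 6.76 on day 1, 6.80, 7.18 and 6.74 on day 3, and 7.16, 10.27 and 10.62 on day 7. Igtp on day 0 replicate 3 was closer to the high day 7 arrays than to the other untreated arrays, and its day 7 replicate 1 was below all 3 day 0 arrays.

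Irgm2 was the dimmest of the 8 against its background, above the median of the negative control features on 5 of 12 arrays, whereas the other members were above it on all 12. It read 5.83, 5.67 and 6.69 on day 0, 5.70, 5.31 and 5.57 on day 1, 5.82, 6.15 and 5.41 on day 3, and 6.29, 7.64 and 8.03 on day 7. Its change can be understated, since its signals on days 1 and 3 lay near or under that background. Iigp1, the best studied effector, read 7.07, 7.66 and 9.25 on day 0, 6.76, 6.84 and 7.15 on day 1, 6.69, 7.89 and 6.76 on day 3, and 7.88, 10.99 and 11.08 on day 7. Iigp1 repeated the high day 0 replicate 3 and the 2 high arrays of day 7.

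**Figure D2:**
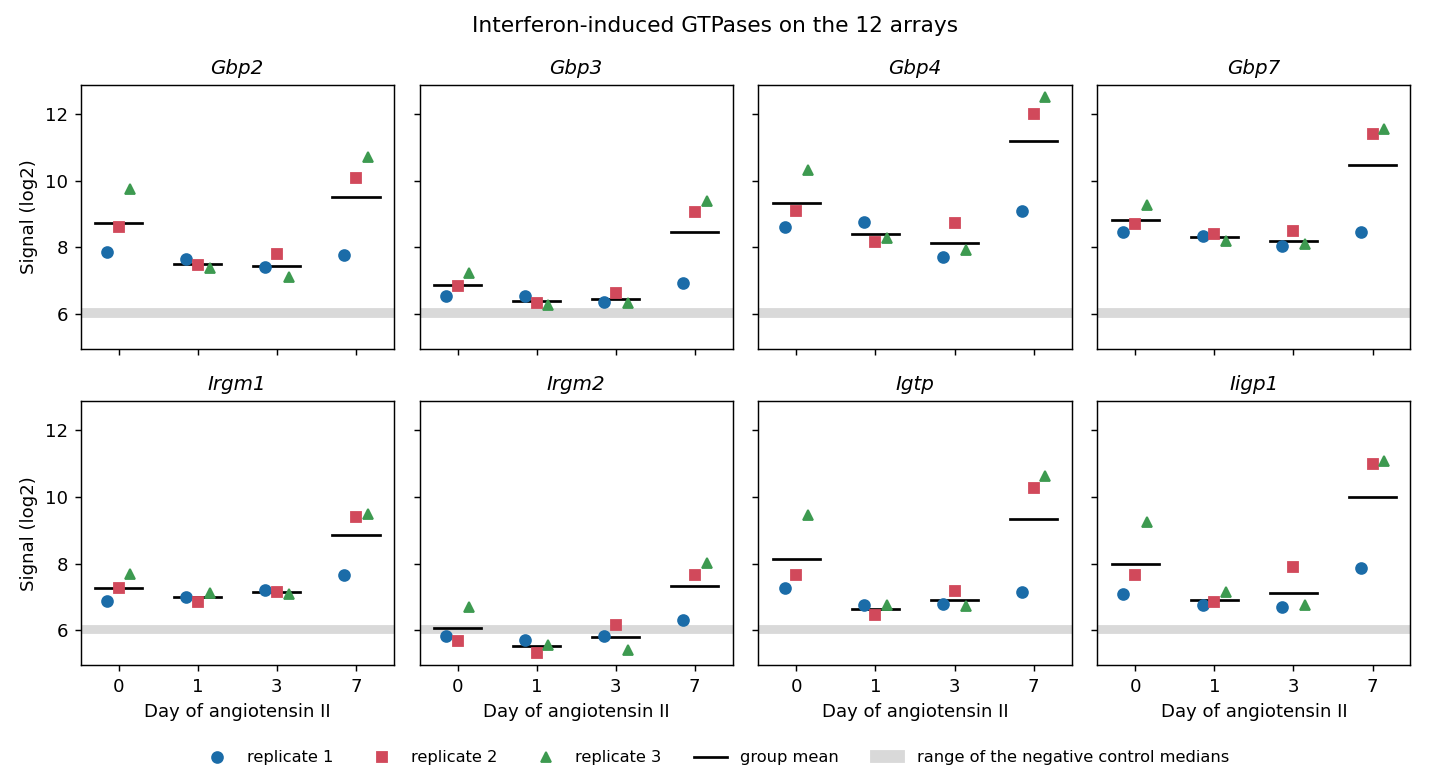
Log2 signal of the 8 GTPases with a cluster of their own on the 12 arrays, by day of angiotensin II, with replicates as symbols, group means as bars and the range of negative control medians in grey. Day 7 replicates 2 and 3 are above every other array in all 8 panels, and day 7 replicate 1 is not.

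The clusters shared with relatives followed the same arrays. The cluster of Gbp6 and Gbp10, which cannot be assigned to either gene, read 8.22, 8.70 and 10.96 on day 0, 8.49, 8.02 and 8.33 on day 1, 7.80, 8.92 and 7.89 on day 3, and 9.14, 12.34 and 12.83 on day 7. A cluster of Tgtp1 and Tgtp2, near-identical effectors, read 6.92, 8.00 and 8.78 on day 0, 6.77, 6.22 and 6.65 on day 1, 6.68, 6.86 and 6.62 on day 3, and 8.26, 11.62 and 11.55 on day 7. A dimmer cluster shared by Tgtp1, Tgtp2 and Gm12185 ran from 5.30 on day 3 replicate 3 to 8.23 on day 7 replicate 3. How well the probes tell close family members apart was not tested for any of these genes.

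Against day 0, only Irgm1 rose with all 12 arrays in the fit. Its day 7 mean was 8.85 and its day 0 mean 7.27, with 2 of 3 day 7 arrays above all day 0 arrays. The log2 difference was 1.58 ± 0.42 SE (adjusted p = 0.0275, limma with Benjamini-Hochberg adjustment over 22168 genes). All 8 differences were positive, from 0.78 to 1.99, with a median of 1.58 beside 0.10 for all genes, and 6 of 8 had an unadjusted p under 0.05. The count of 1 of 8 is to be read against 12.1% of all genes called higher on day 7. Gbp3 (1.58 ± 0.53, adjusted p = 0.0527) and Irgm2 (1.26 ± 0.43, adjusted p = 0.0576) lay just past the threshold, and Gbp2 had the smallest difference (0.78 ± 0.69, adjusted p = 0.401). Iigp1 had the largest difference, 1.99, and the largest SE, 0.85. No member had all day 7 arrays above all day 0 arrays, against 26.7% of all genes. The F test of any change from day 0 called Irgm1 alone (adjusted p = 0.0409), against 14.6% of genes.

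Without day 7 replicate 1, all 8 members passed the test between day 0 and day 7 (adjusted p from 0.000503 to 0.0498, limma), where 6.64% of all genes were called higher. That array was singled out by the members' own low values on it, so these p-values describe the remaining arrays and are not independent support for a rise. The median difference was then 2.33. Iigp1 differed by 3.04 ± 0.59, Gbp4 by 2.92 ± 0.49, Gbp7 by 2.66 ± 0.23 and Gbp3 by 2.35 ± 0.20. Among the regulators, Igtp differed by 2.31 ± 0.54, Irgm1 by 2.18 ± 0.20 and Irgm2 by 1.77 ± 0.32, and Gbp2 again had the smallest difference, 1.65 ± 0.47. No other fit with 1 array left out called more than 1 member in this comparison. Leaving out day 7 replicate 2 instead gave 0 of 8 called in limma (adjusted p 0.0812 to 0.648, beside 5.33% of genes), and leaving out replicate 3 gave 0 of 8 (0.0537 to 0.856, beside 19.2%), each with 1 of 8, Irgm1, at an unadjusted p under 0.05. Without day 0 replicate 3, 1 of 8 rose (Irgm1, adjusted p = 0.0444), the median was 1.83, and 5.27% of genes were called higher.

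**Figure D3:**
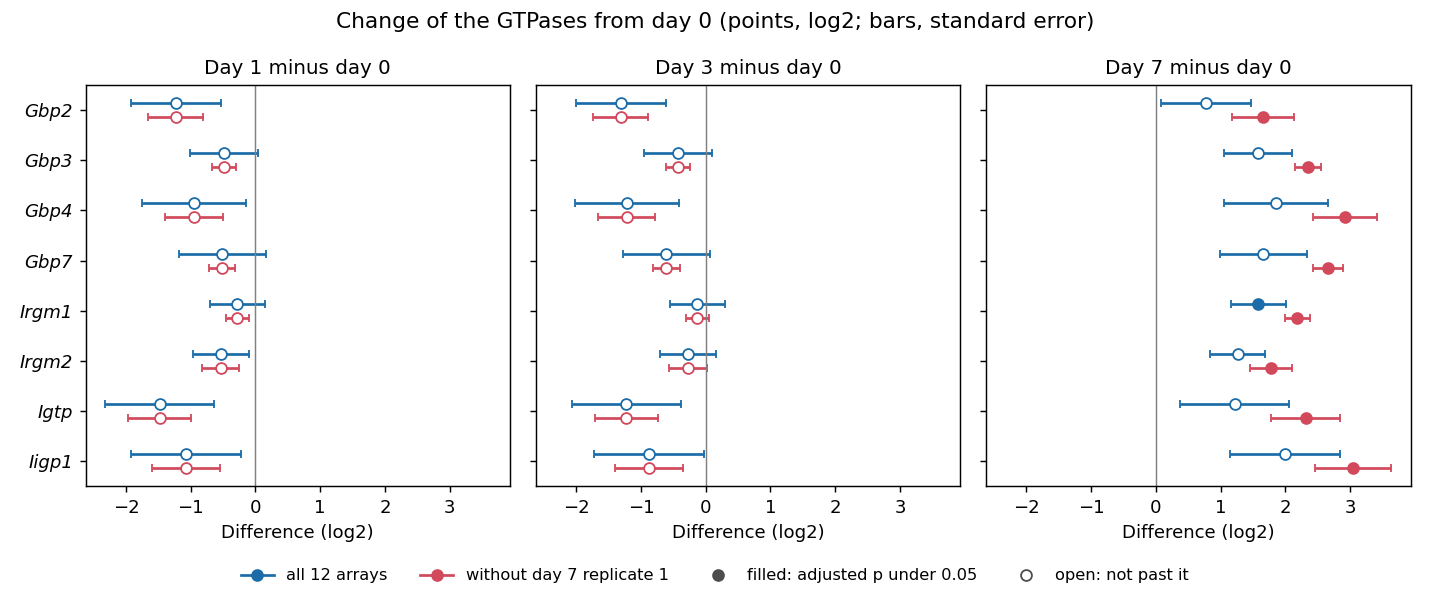
Log2 differences of days 1, 3 and 7 from day 0 for the 8 GTPases, with standard errors, from the fit to all 12 arrays (blue) and to the 11 without day 7 replicate 1 (red), filled where the adjusted p is under 0.05. On day 7 only Irgm1 is filled in blue and all 8 are filled in red, and no point is filled on days 1 and 3.

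Early in the infusion the members were lower than on day 0 in the means, but none of the differences passed the test. On day 1 the differences ran from -1.48 (Igtp) to -0.28 (Irgm1), with a median of -0.74, and limma called 0 of 8 (adjusted p 0.454 to 0.883) and 0 of 8 at an unadjusted p under 0.05, while 3.6% of all genes were called. Day 3 gave -1.31 (Gbp2) to -0.13 (Irgm1), again with a median of -0.74 and with 0 of 8 called and 0 of 8 at an unadjusted p under 0.05 (limma, adjusted p 0.245 to 0.859), while 11.6% of genes were called. These signs were not kept once that gap between control features was a covariate in the fit, where 3 of 8 were positive on day 1 and 7 of 8 on day 3. The gap was wider on every day 0 array than on any treated array, so that fit cannot separate it from treatment. In the fit without the covariate and without day 0 replicate 3, the members' median difference was -0.38 on day 1 and -0.31 on day 3. The day 3 differences of Irgm1 and Irgm2 were then 0.075 and 0.044. All day 1 arrays lay below all day 0 arrays for Gbp2, Gbp7 and Igtp, 3 of 8 beside 11.5% of all genes, and all day 3 arrays did so for Gbp2 and Igtp, 2 of 8 beside 21.3%. Between days 1 and 3 the differences were -0.27 to 0.27 and limma called 0 of 8, 0 of 8 at an unadjusted p under 0.05, and 0 of all 22168 genes.

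The step to day 7 was larger when measured from the treated days, although these contrasts share the day 7 arrays with the one above. From day 1 to day 7 all 8 members had every day 7 array above every day 1 array, beside 14.2% of all genes. Irgm1 (1.86 ± 0.42, adjusted p = 0.0439) and Irgm2 (1.80 ± 0.43, adjusted p = 0.0489) rose, 2 of 8 beside 1.89% of genes. The other differences were 2.01 for Gbp2 to 3.06 for Iigp1, with adjusted p up to 0.0963, and the median was 2.12. From day 3 to day 7, Gbp3, Gbp4, Irgm1 and Irgm2 were the 4 of 8 without overlap, beside 7.06% of genes. Differences there were 1.53 (Irgm2) to 3.08 (Gbp4), and limma called 0 of 8 (adjusted p 0.139 to 0.267), with all 8 at an unadjusted p under 0.05 and 0.113% of genes called higher.

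Without day 7 replicate 1, left out for the members' values as above, all 8 passed the test from day 1 (median 3.03, adjusted p 0.000348 to 0.0190, beside 1.43% of genes) and from day 3 (median 3.12, adjusted p 0.000373 to 0.0235, beside 0.947%). Gbp4 then stood 4.14 ± 0.49 above day 3 and Iigp1 4.11 ± 0.59 above day 1. Irgm2, the dimmest, had the smallest of these differences, 2.04 ± 0.32 from day 3 and 2.31 ± 0.32 from day 1.

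The spread between replicates was itself uneven over the course. The members' median SD was 0.71 on day 0, 0.16 on day 1, 0.30 on day 3 and 1.64 on day 7, beside 0.13, 0.20, 0.15 and 0.25 for all genes. On day 7 each member's SD was larger than that of 97.1 to 99.9% of genes, and on day 0 larger than that of 88.4 to 99.8%. On day 1 the members ranked between 26.0 and 73.0%, within the bulk of genes. The gap between replicate 1 and the next day 7 array was 2.29 for Gbp2 and 2.93 for Gbp4, against 0.65 and 0.51 between the upper arrays.

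The members varied together. Centred on each gene's mean over the arrays, the mean of the 8 was -0.56, -0.20 and 0.82 on day 0, -0.69, -0.91 and -0.79 on day 1, -0.88, -0.38 and -0.95 on day 3, and -0.23, 2.22 and 2.54 on day 7. The 4 Gbp genes and the 4 Irg genes gave 2.24 and 2.20 on day 7 replicate 2, and 0.76 and 0.89 on day 0 replicate 3, so both families shared the pattern. Pearson r between pairs was 0.879 to 0.992 with a median of 0.962 (28 pairs over 12 arrays), a description that rests on the same few high arrays in every pair.

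Genes were ranked by likeness to the members' mean, by Pearson r over the 12 arrays. The members and symbols of Gm plus digits, ending in Rik or clone-like were passed over, so closer genes may be unnamed. The first 10 of the rest began with 2 further guanylate-binding proteins, Gbp9 (0.977) and Gbp8 (0.971). Trim12a, Tap2, Parp12, Ifi35, Myh2, Tap1, Psmb8 and H2-K1 followed, down to 0.935. Tap1 and Tap2 carry peptides to MHC class I, H2-K1 is a class I chain and Psmb8 is an immunoproteasome subunit. Myh2 encodes a fast myosin of skeletal muscle. Myh2 and Psmb8 were each above the negative control median on only 2 of 12 arrays. Gbp9 read 8.26, 8.51 and 9.07 on day 0 and 8.93, 11.27 and 11.32 on day 7, with the same split. Tap1 rose by 0.89 from day 0 to day 7 (adjusted p = 0.0309, limma), and Tap2 differed by 0.25 (adjusted p = 0.144).

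Relatives outside the member list were scored the same way. Of 18 further Gbp, Irg and giant GTPase genes 8 were tested, and 5 rose on day 7 against day 0, beside the 12.1% of all genes: F830016B08Rik (2.46), Gvin1 (2.44), Gbp9 (1.89), Gm5431 (1.43) and 9930111J21Rik2 (1.40). Their median was 1.66, and without day 7 replicate 1 the count was 7 of 8, beside 6.64% of genes. Gbp8, Gm4951 and Gbp11 did not pass with all arrays, and Gbp11 had the smallest difference of the 8, a difference of 0.85 ± 0.70 (adjusted p = 0.363), with day 3 values of 7.43, 9.14 and 7.15.

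A list of 11 genes held Ifng, Ifnb1, interferon receptor chains and the interleukins Il12a, Il12b, Il15, Il18 and Il27, with no interferon alpha gene. Of these 7 were tested, Il15 and Il18 among them. On day 7 against day 0, 0 rose while 1 fell, at a background of 13.1% of all genes called lower. Ifngr2, a chain of the interferon gamma receptor, fell by 0.85 (SE 0.20, adjusted p = 0.0168). Ifng itself was below the negative control median on all 12 arrays, at 4.41 to 5.17, and was not tested. Ifnb1 was below it on all 12 arrays too, at 4.65 to 5.77. Without day 7 replicate 1, 1 of the 7 rose (Ifnar2, a type I receptor chain, 0.38, adjusted p = 0.0328) and 1 fell, beside 6.64 and 8.64% of genes.

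Of 20 genes of interferon signalling 15 were tested, and 7 rose and 1 fell on day 7, beside 12.1 and 13.1% of all genes. The counts were 7 and 1 without day 7 replicate 1 too. Stat2 (2.36 ± 0.55, adjusted p = 0.0167), Irf7 (2.15), Usp18 (1.64) and Irf9 (1.25) rose. The other risers, Ciita, Irf8 and Irf5, differed by 0.60 or less at signals near or under background, with Ciita above the negative control median on 1 of 12 arrays and Irf8 and Irf5 on 0. Usp18 was above it on 2 arrays and Irf7 on 5. Stat2 and Irf9 are partners in the factor that binds ISREs, and Usp18 dampens the type I receptor. Stat2 read 7.04 to 7.40 on day 0 and 7.92, 10.26 and 10.59 on day 7, so its replicate 1 was the lowest of day 7 too. Pias1, a SUMO ligase that restrains interferon signalling, fell by 1.48. Pias1 was already called lower on day 1 (-1.10, adjusted p = 0.0431, limma) and on day 3 (-1.42, adjusted p = 0.00949). On those days 0 and 1 of the 15 genes were called higher. Irf1, the ISRE-binding factor of the gamma response, read 6.29, 6.56 and 7.13 on day 0 and 6.75, 7.35 and 7.21 on day 7, a difference of 0.44 ± 0.22 that did not pass (adjusted p = 0.148).

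Of 26 type I interferon targets 23 were tested, and 21 rose and 0 fell on day 7 against day 0, with a median of 1.66 and beside 12.1% of all genes called higher. Oas2, which senses double-stranded RNA, rose by 3.95 ± 0.72 (adjusted p = 0.00627), Ifit1 and Trim30a by 2.59 and Oasl2 by 2.11. The other interferon gamma targets gave 9 risers and 0 fallers of 22 tested among 28, with a median of 0.36. Among the risers were Sp100 (2.01), Xaf1 (2.01), Parp14 (1.68) and Fcgr1 (1.66). The risers Cxcl11 and Ccl5 were above the negative control median on 0 of 12 arrays and Psmb9 on 1. Cxcl11 and Ccl5 did not pass without day 7 replicate 1 (adjusted p = 0.0972 and 0.0651, limma). Cxcl9, a chemokine made in response to interferon gamma, read 6.91, 7.74 and 9.94 on day 0 and 8.16, 11.18 and 9.78 on day 7, and its difference of 1.51 ± 0.85 did not pass (adjusted p = 0.194). Without day 7 replicate 1 the counts were 23 of 23 type I targets and 10 of 22 gamma targets, beside 6.64% of genes.

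All 3 interferon lists had their highest untreated mean on day 0 replicate 3, by different margins. The centred mean of the type I targets was -0.43 there, next to -0.53 and -0.59 on the other untreated arrays, while the GTPases stood at 0.82 and the other gamma targets at 0.07 against -0.24 and -0.18. Cxcl9, too, was highest there among the untreated arrays. The lists differ in makeup, and no test of this difference was run. On day 7 replicates 2 and 3 the type I targets stood at 1.75 and 1.49 and the gamma targets at 0.81 and 0.67, so all 3 lists were high on those arrays.

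**Figure D4:**
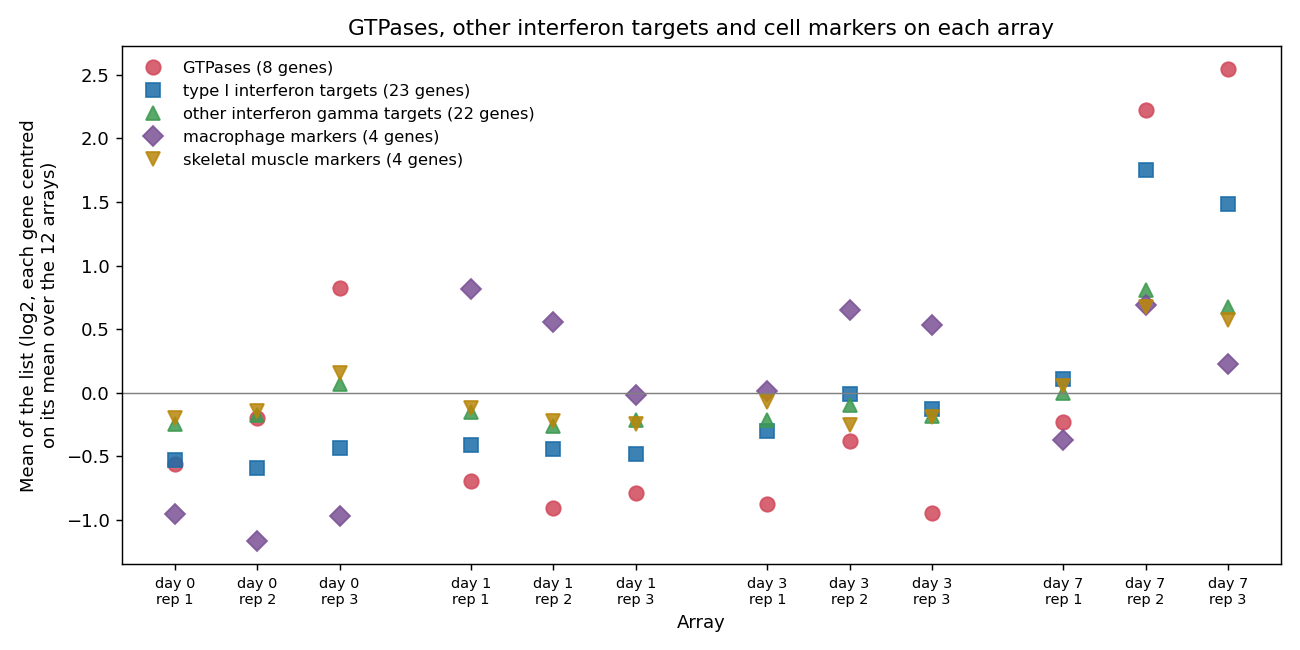
Mean log2 level of each list on each array, with every gene centred on its mean over the 12 arrays, for the 8 GTPases, 23 type I interferon targets, 22 other interferon gamma targets, and 4 macrophage and 4 skeletal muscle markers. The GTPases are at 0.82 on day 0 replicate 3 where the type I targets are at -0.43, and both are high on day 7 replicates 2 and 3.

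Genes that the GTPases are known to work with were read from lists of autophagy and inflammasome genes. Of 17 autophagy and vacuole genes, all tested, 2 rose and 5 fell on day 7, with a median of -0.12. The risers are near the 12.1% of all genes called higher, and 13.1% were called lower. Rnf213, a giant ubiquitin ligase, rose by 2.90 ± 0.73 (adjusted p = 0.0225) and Trim21, an antibody receptor and ligase, by 0.68. Ubqln2 (-1.50), the adaptor Sqstm1 (-0.90), Gabarap (-0.65), Traf6 (-0.39) and Map1lc3a (-0.29) fell. Map1lc3a was above the negative control median on 0 of 12 arrays and did not pass without day 7 replicate 1 (adjusted p = 0.122), where the counts were 2 and 4. Of 12 inflammasome genes 10 were tested, and beside the same shares of all genes 5 rose and 1 fell, with or without that array: the cytokine Il1b (0.90), the sensors Naip2 (0.89), Nlrp1b (0.67) and Aim2 (0.63), the pore former Gsdmd (0.62), and Nek7 (-1.17). Il1b and Aim2 were each above the negative control median on 1 of 12 arrays. Casp4, the caspase that Gbp proteins help to activate, differed by -0.06 (adjusted p = 0.900). Some calls against day 0 came before day 7. Of the 17 autophagy and vacuole genes, 1 fell on day 1 and 5 on day 3, with 0 risers. In either direction 3.6 and 11.6% of all genes were called. Sqstm1 differed by -1.18 on day 1 (adjusted p = 0.0139, limma) and -1.28 on day 3 (adjusted p = 0.0052). Ubqln2 (-1.10), Gabarapl1 (-1.04), Traf6 (-0.43) and Pik3c3 (-0.34) also fell on day 3. Naip2 (0.54) and Nlrp1b (0.46) rose on day 3, 2 of the 10 inflammasome genes tested.

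Markers of other cells were read beside these changes, and their part in them was not tested. The 4 macrophage markers averaged 6.67 to 6.88 on day 0, 7.81 to 8.65 on day 1 and 7.84 to 8.48 on day 3. On day 7 they averaged 7.46, 8.53 and 8.06, so every treated array was above day 0. Within day 7 they were lowest on replicate 1, as were the GTPases and the endothelial, fibroblast, adipocyte and skeletal muscle markers. The smooth muscle markers were not, and T cell, NK cell, B cell, dendritic cell, neutrophil and brown adipocyte markers were highest there. For neutrophil markers the means were 6.04 there and 6.03 on replicate 3. The median of all clusters was also highest on replicate 1, at 5.88 against 5.74 and 5.58. So was the negative control median, at 6.14 against 6.07 and 6.06. The part of this in the dim marker signals was not tested. All 6 T cell markers, all 4 NK cell markers and all 3 measured B cell markers were at or under the negative control median on every array. Only 2 of the 4 NK cell markers were bright enough to be tested. At those dim signals both were called higher on day 7 against day 0, beside 12.1% of all genes. Klrk1 differed by 0.61 (adjusted p = 0.00749, limma) and Klrb1c by 0.40 (adjusted p = 0.0269). Both passed without day 7 replicate 1 too, beside 6.64% of genes. Of the 4 dendritic cell markers 3 were at or under the negative control median on every array, and the mean of the 4 was 4.80 to 5.50. Clec9a, 1 of 2 tested, was called higher by 0.85 (adjusted p = 0.0115, limma), beside the same 12.1% of genes. Neutrophil markers averaged 5.34 to 6.04. Of the 4 tested, 1 was called higher on day 7 against day 0, beside the same 12.1% of genes. It was S100a8, which differed by 0.92 (adjusted p = 0.0123, limma, and 0.0372 without day 7 replicate 1). On day 3 it differed by 0.84 (adjusted p = 0.0284). The skeletal muscle markers (Acta1, Ckm, Myh4 and Mylpf) averaged 5.67, 5.73 and 6.02 on day 0, 5.61 to 5.79 on days 1 and 3, and 5.92, 6.54 and 6.44 on day 7, highest on the same arrays as the GTPases. The adipocyte markers averaged 9.56, 10.03 and 9.86 on day 7 against 9.23 to 9.43 on day 0, and fibroblast markers 15.01, 16.00 and 15.65 against 12.39 to 13.73.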

How the data were processed

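Expression was read on 12 Affymetrix arrays of vessel RNA, 3 per group. The authors deposited log2 signals per transcript cluster, and per the submitters' processing notes the software was Affymetrix Expression Console. For its version, normalization and genome build, nothing is stated in the sources used here. An older array design is named in the labels than in the table's identifiers, so the table's identifiers and the platform annotation were used: of 65956 clusters 31402 had 1 gene, 1348 several and 33206 no symbol, and 6732 further features were controls.

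Values were used as deposited. Each gene was represented by its brightest single-gene cluster, and genes with at least 3 of 12 arrays at or above the 40th percentile of clusters (5.25) were tested. One limma fit (limma 3.58.1, R 4.3.3) had a mean per group over all 12 arrays, with empirical Bayes without trend. P-values were adjusted over all 22168 genes by Benjamini-Hochberg, and genes with an adjusted p under 0.05 were called. The code was tested on simulated data. P-values measure the spread between arrays called biological replicates. All members were named, together with called genes of each pathway list and genes known as inducers or partners. The 10 genes most like the members' mean were named too, passing over clone-like, Gm and Rik symbols. The members and lists were chosen with earlier results of these data known. Replicate numbers were taken from the labels. Deviations from group means correlated from -0.51 to 0.66 between same-numbered arrays (18 pairs), so the numbers were not taken to pair the samples. Promoters came from the RefSeq table for GRCm38.p6 (32851 windows) and were aligned with Biopython 1.88. Alternatives were median centring, quantile normalization, a filter at the 60th percentile, no filter, averaging the clusters of a gene, a variance trend with robust estimation, the replicate block, a control-feature covariate, the 6 arrays compared, and leaving out each array.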

Additional observations from a re-analysis of the deposited data

How the results depend on the processing

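The number of members called (adjusted p under 0.05, limma) was 1 for day 7 against day 0 and became 0 with median centring, 2 with the stricter filter, 3 with variance trend and robust estimation, 3 with the control-feature covariate and 0 with the 6 arrays compared, and 0 to 8 when 1 array was left out. For day 7 against day 1 it was 2, and 3 with quantile normalization, the stricter filter, or trend and robust estimation, 1 with median centring, 0 with no filter, 6 with the covariate, 0 with the 6 arrays compared, and 0 to 8 with an array left out. For day 7 against day 3 it was 0, and 5 with the covariate and 0 to 8 with an array left out, and for any day against day 0 it was 1, and 0 with median centring, 3 with trend and robust estimation, 5 with the covariate and 0 to 8 with an array left out. The value of 8 came in each case from leaving out day 7 replicate 1. With the replicate block, 1, 2 and 0 members were called for day 7 against days 0, 1 and 3, and same-numbered arrays correlated with each other best for 7 of 12 arrays. Signs turned only in comparisons with no call: with the covariate, day 1 minus day 0 became 0.12 for Gbp3, 0.30 for Gbp7 and 0.24 for Irgm1, and day 3 minus day 0 became 0.67 for Gbp3, 0.23 for Gbp4, 0.85 for Gbp7, 0.81 for Irgm1, 0.50 for Irgm2, 0.40 for Igtp and 0.78 for Iigp1. With 1 array left out, day 3 minus day 0 ran from -0.32 to 0.075 for Irgm1 and from -0.47 to 0.044 for Irgm2, the highest without day 0 replicate 3. The causes of these moves were not tested. The covariate did not overlap between day 0 and treated arrays, so its contrasts with day 0 are extrapolations. The day 7 differences of all 8 members from each other day stayed positive under the 9 settings that kept all arrays of a comparison. Scaling shifted the median of all genes for day 7 against day 0 from 0.10 as deposited to -0.11 with quantile normalization and -0.19 with median centring, and the share of calls that were rises from 48.0% to 23.2% and 20.8%. The members' median, 1.58 as deposited, was then 1.49 and 1.31, and it was 3.26 with the covariate. With 3 arrays per group and 1 array of narrow signal, a change shared by all day 7 animals and one present in some of them cannot be told apart.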
